A study of Mus musculus with 6 samples.

Results

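Kinesins, dyneins and tubulins are the motors and the building blocks of the microtubule system, and their mRNA was followed here in mouse follicular B cells that differed in Myh9, the gene of the myosin IIa heavy chain. The genes were taken by name, as every gene whose symbol starts with Kif and a digit, with Dync or Dynl, or with Tuba, Tubb or Tubg and a digit. This gave 70 gene names of the 20433 in the table, and 38 of them reached 1 FPKM as the mean of both genotypes, beside 9866 of all gene names. FPKM counts sequenced fragments per length of transcript and per size of the library. Follicular B cells of the C57BL/6 strain had been sorted by the gate B220+AA4.1-CD23+CD21lo, in 3 samples labelled CD23Cre+Myh9wt/fl (wt/fl below) and another 3 labelled CD23Cre+Myh9fl/fl (fl/fl). All 6 samples carried Cre under the CD23 promoter, which acts from the transitional stage onward, so the comparison group had 1 deleted Myh9 allele and was not wild-type, and no Cre-negative or Myh9wt/wt cells are part of the comparison. The labels give no age for these mice.

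The authors deposited 1 FPKM value per genotype for each entry, pooled over the 3 samples, where an entry groups those transcripts of a gene that share a coding sequence. No spread between mice can therefore be given and no test was run. Each difference below compares 2 pooled values, and a pair of values gives wt/fl first and fl/fl second. FPKM was summed over the entries of a gene, and the difference is the log2 ratio of fl/fl over wt/fl after adding 1 FPKM to each value, which understates the change of genes with low levels. A gene was called past the fold at 1.5-fold or more on that scale. Myh9 itself was at 50.6 FPKM in wt/fl and at 21.1 FPKM in fl/fl, 41.7% of the haploinsufficient level. The floxed allele loses exon 3, and the FPKM is not limited to that exon. It therefore does not measure how complete the deletion was, which the authors followed by exon 3 mRNA and by protein. The B cell markers Cd79a, Cd79b, Ms4a1, Pax5, Cd22, Cr2 and Fcer2a were all high, the lowest being Cr2 at 177 and 198 FPKM, and the 7 T cell markers summed to 23.0 and 21.7 FPKM. Of the T cell markers 4 were compared, with 0 past 1.5-fold and a median log2 ratio of −0.14. Lck, at 14.5 and 14.5 FPKM, made up most of that sum. Cd3d was at 3.02 and 2.31 FPKM, Cd3g at 1.96 and 1.26 FPKM and Cd3e at 1.83 and 1.96 FPKM. Of the macrophage markers 3 were compared and 1 was past 1.5-fold lower, with sums of 81.8 and 52.8 FPKM. The lower one was Lyz2, at 72.6 and 44.9 FPKM. Cd68 was at 7.41 and 6.10 FPKM and Csf1r at 1.42 and 1.39 FPKM.

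Microtubules are polymers of α- and β-tubulin, and γ-tubulin starts their growth at the centrosome. Most kinesins walk toward the plus end of a microtubule and carry vesicles and organelles outward, whereas cytoplasmic dynein, called dynein 1, walks to the minus end and carries cargo toward the centrosome. In B cells that meet antigen, dynein gathers receptor-bound antigen and the centrosome moves to the immune synapse. A separate set of kinesins is made in dividing cells, where it builds the spindle and the midbody, the structure at which daughter cells part.

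With 1 FPKM added to each value, the mRNA of this system differed little between the pooled values of the genotypes. Of the 38 compared genes, 0 were 1.5-fold or more higher in fl/fl, where 0.791% of all compared genes were, and 1 was 1.5-fold or more lower, Tubb2a, where 1.53% of all compared genes were. At 2-fold, 0 genes were higher or lower, against 0.0912% and 0.405% of all genes. For 32 of the 38 genes the higher value was less than 25% above the lower one, with 1 FPKM added to each, a looser limit called 25% below. Past it, 4 genes were higher in fl/fl (4.6% of all genes) and 2 were lower (5.48% of all genes). Over the 38 genes the log2 ratio had a median of 0.027, beside 0.0026 for all 9866 genes, with 22 genes above 0 and 16 below. The summed level of all 70 genes was 853 FPKM (wt/fl) and 873 FPKM (fl/fl).

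**Figure D1:**
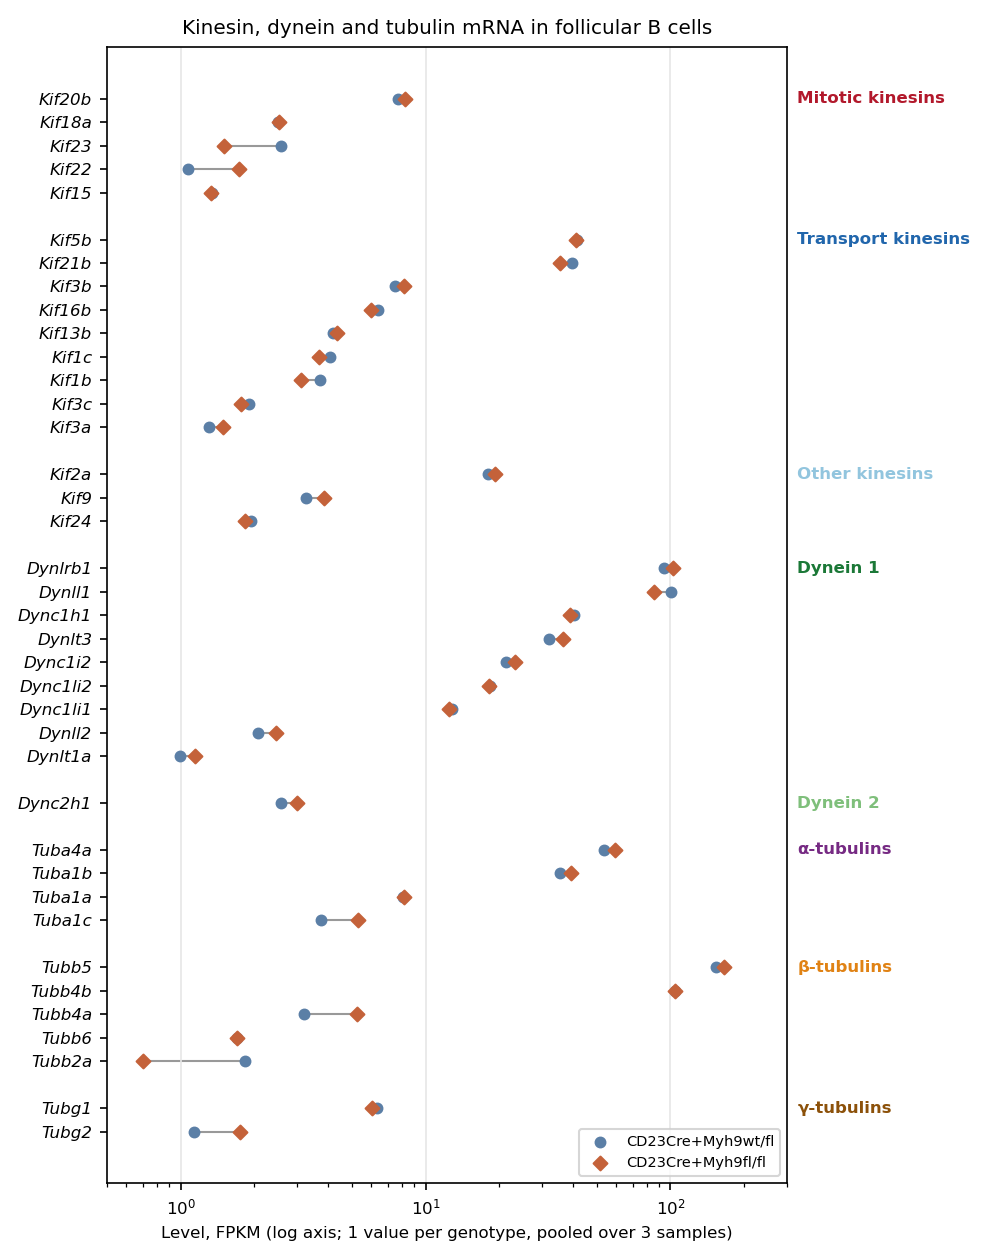
Level of the 38 compared kinesin, dynein and tubulin genes, in FPKM on a log axis, with 1 circle for CD23Cre+Myh9wt/fl and 1 diamond for CD23Cre+Myh9fl/fl per gene, each pooled over 3 samples. The symbols of most genes overlap, and the longest gap is that of Tubb2a, from 1.83 to 0.705 FPKM.

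Differences were wider among genes of low level. Among all genes with a mean of 1 to 5 FPKM, the central 90% of log2 ratios ran from −0.52 to 0.44, and it narrowed to −0.32 to 0.31 between 5 and 20 FPKM and to −0.24 to 0.25 above 20 FPKM. Of all genes in these 3 ranges, 2.43%, 0.404% and 0.266% were past 1.5-fold higher and 3.93%, 0.933% and 0.797% past 1.5-fold lower. Of the 19 motor and tubulin genes between 1 and 5 FPKM, 3 lay outside that range, namely Tubb2a, Tubb4a and Kif23. The 8 genes between 5 and 20 FPKM and the 11 genes above 20 FPKM all lay inside it. The 11 most abundant genes had a median log2 ratio of 0.11, beside 0.015 for the 3764 genes of that range. Each of the 6 genes past 25% had a mean under 5 FPKM.

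**Figure D2:**
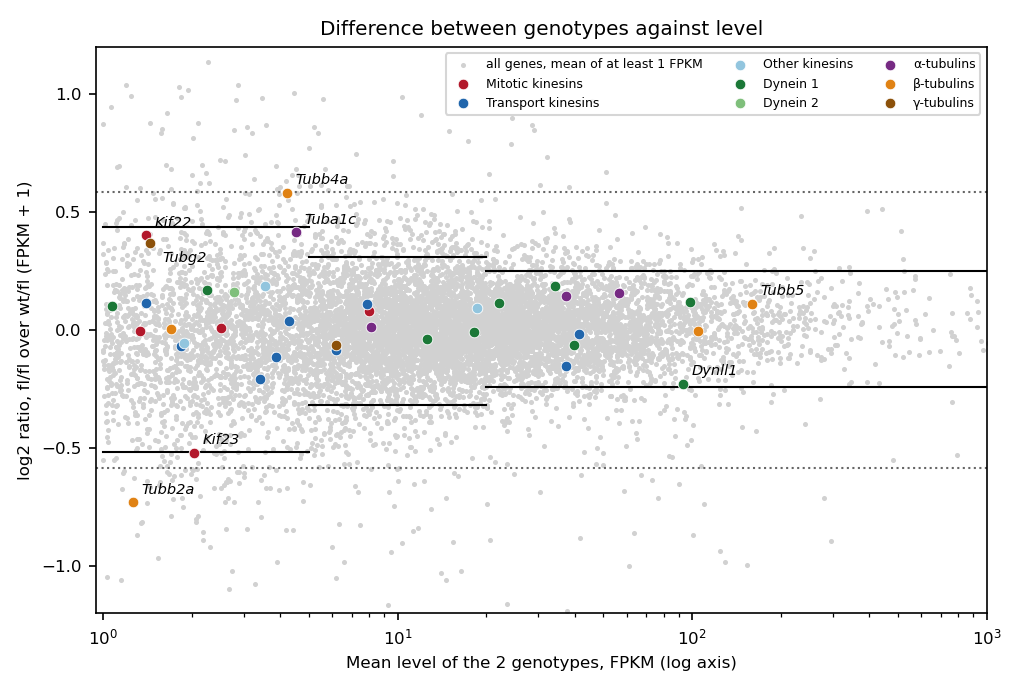
Log2 ratio of fl/fl over wt/fl (1 FPKM added to each value) against the mean level of both genotypes in FPKM on a log axis, with all 9866 genes in grey and the 38 kinesin, dynein and tubulin genes in color; genes outside the plotted area are not shown. Black lines bound the central 90% of all genes in 3 ranges of level and dotted lines mark 1.5-fold; Tubb2a lies below the lower dotted line and Tubb4a just under the upper one.

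β-tubulin mRNA came almost entirely from a pair of genes. Tubb5, the β-tubulin of most cell types, was the most abundant gene of the whole set, with 153 FPKM (wt/fl) and 165 FPKM (fl/fl). Tubb4b was at 104.7 and 104.5 FPKM. Together they made up 97.1% of the summed β-tubulin FPKM in wt/fl, against 96.9% in fl/fl. The balance between them moved by under 2 points, since Tubb5 held 57.6% and 59.4% of the β-tubulin sum and Tubb4b 39.4% and 37.5%.

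Among the scarcer β-tubulins, a pair that is abundant in brain differed. Tubb2a had 1.83 FPKM (wt/fl) and 0.705 FPKM (fl/fl), 38.6% of the wt/fl level, a log2 ratio of −0.73 with 1 FPKM added. Its mean of 1.27 FPKM put it just inside the limit of 1 FPKM. Its near-identical neighbor on the same chromosome, Tubb2b, was at 0.887 and 0.690 FPKM, and the pair summed to 2.71 FPKM (wt/fl) and 1.40 FPKM (fl/fl). Tubb4a went the other way, with 3.18 FPKM (wt/fl) and 5.26 FPKM (fl/fl). Its log2 ratio of 0.5832 with 1 FPKM added fell just short of the 0.5850 that 1.5-fold requires, and without the added FPKM the levels differed 1.65-fold. Tubb6 was level at 1.70 and 1.70 FPKM. Tubb3, the β-tubulin that marks neurons, was at 0.176 and 0.154 FPKM, and Tubb1, that of platelets, at 0.0670 and 0.0486 FPKM.

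Markers of several other cell types were also lower in fl/fl. The summed level of 8 neutrophil markers was 366 FPKM (wt/fl) and 65.0 FPKM (fl/fl), and all 6 that could be compared were past 1.5-fold lower. The 4 erythroid markers found in the table summed to 3.51 and 0.641 FPKM, all of them under a mean of 1 FPKM. Of the plasma cell markers, Igj was at 5.40 and 0.617 FPKM and Sdc1 at 2.30 and 1.13 FPKM, while Irf4 and Xbp1, which B cells also make, differed by less than 25%. Platelet markers went both ways. Of 5 markers 1 was compared, Ppbp at 1.43 and 1.38 FPKM, and 0 passed 1.5-fold, with a sum of 1.94 and 2.57 FPKM. Under the limit, Pf4 was at 0.168 and 0.880 FPKM and Itga2b at 0.173 and 0.262 FPKM. Gp9, at 0.105 and 0 FPKM, and Tubb1, at 0.0670 and 0.0486 FPKM, were lower in fl/fl. The part of these cells in the Tubb2a and Kif23 values was not tested, and in sorted bulk samples fewer cells of a type and less RNA per cell cannot be told apart.

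α-tubulin mRNA was spread over more genes. Tuba4a was at 53.3 FPKM (wt/fl) and 59.5 FPKM (fl/fl), and Tuba1b, the main α-tubulin of dividing cells, at 35.3 and 39.1 FPKM. Together these made up 87.9% and 87.7% of the summed α-tubulin FPKM. Tuba1a followed with 8.11 and 8.20 FPKM. Tuba1c had 3.74 FPKM (wt/fl) and 5.31 FPKM (fl/fl), a log2 ratio of 0.41, and its share of α-tubulin was 3.71% and 4.73%. All 4 compared α-tubulin genes had log2 ratios above 0, from 0.014 to 0.41, and the α-tubulin sum was 101 FPKM (wt/fl) and 112 FPKM (fl/fl). The testis α-tubulins Tuba3a and Tuba3b were listed at 0.0266 and 0 FPKM and at 0 in both genotypes. Summed β-tubulin FPKM was 2.64 times summed α-tubulin FPKM in wt/fl and 2.48 times in fl/fl.

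**Figure D3:**
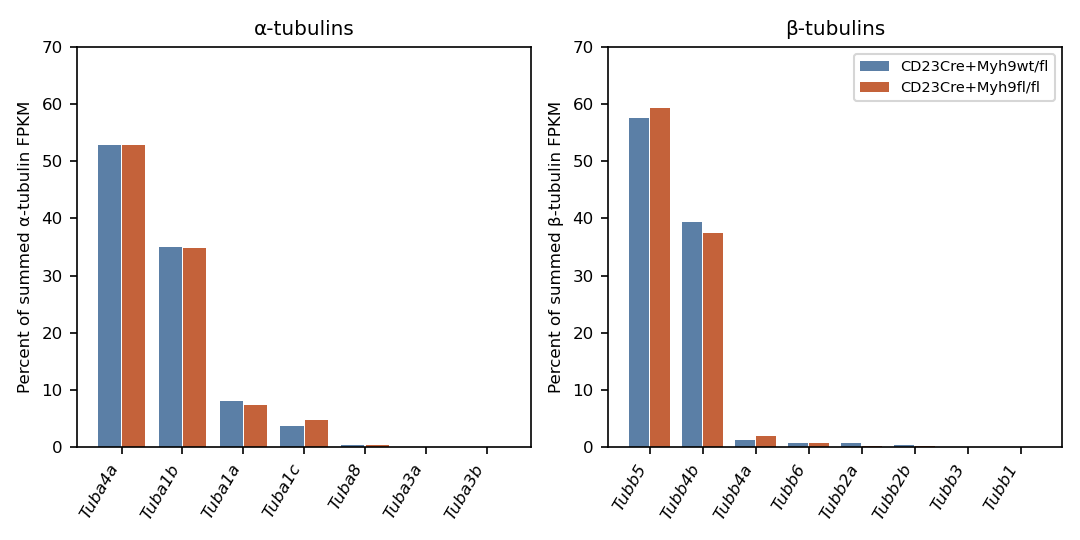
Share of each gene in the summed FPKM of the 7 α-tubulin genes (left) and the 8 β-tubulin genes (right), in percent, with 1 bar per genotype and no error bars because each value is pooled over 3 samples. Tuba4a and Tuba1b hold 87.9% of α-tubulin in wt/fl and Tubb5 and Tubb4b hold 97.1% of β-tubulin.

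Tubulin genes share much of their sequence, which bears on how well fragments can be assigned to each. The coding sequences of GENCODE M21 (GRCm38) for Tubb2a and Tubb2b were 96.5% identical, with 47 differences over 1335 bases and a longest shared stretch of 551 bases. Of all windows of 50 bases in the Tubb2a transcript, 45.6% also occurred in another expressed β-tubulin transcript or in that of Tubb2b, whereas the figure was 0.184% for Tubb4a, 0.0385% for Tubb5 and 0% for Tubb4b. In the α family, Tuba1a, Tuba1b and Tuba1c were 97.1% to 98.3% identical, and 52.0%, 64.6% and 59.8% of their windows were shared, so how the authors' software split fragments among these genes is uncertain. None of the windows of Tuba4a was shared. The last coding bases encode the acidic tail where tubulin isotypes differ most. They are shown for Tubb5, Tubb4b, Tubb4a, Tubb2a and Tubb2b because they set the isotypes apart. Tubb6, also a compared gene, is not shown. Each line gives the final 60 coding bases before the stop codon on the coding strand. Capitals mark bases that differ from Tubb5, or have no counterpart in it, in a pairwise alignment. Bases of Tubb5 that a gene lacks are not marked. The placement of gaps is not unique, so the same bases can be marked differently in Tubb2a and Tubb2b. They are coding exon sequence on GRCm38, at chr17:35834985-35835044 (minus strand) for Tubb5, chr2:25222311-25222370 (minus) for Tubb4b, chr17:57080693-57080752 (minus) for Tubb4a, chr13:34074471-34074530 (minus) for Tubb2a and chr13:34127474-34127533 (minus) for Tubb2b.
Tubb5: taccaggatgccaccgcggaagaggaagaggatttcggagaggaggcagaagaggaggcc
Tubb4b: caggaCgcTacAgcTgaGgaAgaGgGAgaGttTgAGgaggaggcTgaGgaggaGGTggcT
Tubb4a: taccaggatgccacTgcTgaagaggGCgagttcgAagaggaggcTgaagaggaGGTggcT
Tubb2a: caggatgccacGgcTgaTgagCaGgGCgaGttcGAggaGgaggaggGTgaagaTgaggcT
Tubb2b: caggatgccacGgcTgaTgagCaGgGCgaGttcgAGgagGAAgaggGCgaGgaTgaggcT
Tubb2a carried 15 capitals in this stretch, against 18 in Tubb2b, 10 in Tubb4a and 19 in Tubb4b.

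γ-tubulin nucleates microtubules as part of a ring complex. Tubg1 was at 6.33 FPKM (wt/fl) and 6.02 FPKM (fl/fl). Tubg2 was at 1.14 and 1.76 FPKM, a log2 ratio of 0.37, and its share of γ-tubulin was 15.2% in wt/fl and 22.6% in fl/fl. The coding sequences of the pair were 93.3% identical. Of the other proteins of the ring and its recruitment, listed by function, 8 of 8 genes were compared and 0 passed 1.5-fold or 25%, with Tubgcp3 at 26.7 and 25.8 FPKM and Mzt1 at 20.5 and 20.98 FPKM.

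The 11 kinesins grouped as mitotic were scarce, and 5 of them reached the limit of 1 FPKM. The group holds Kif2c but not Kif2a, which was placed with the other kinesins and is described below. Kif20b, which acts late in cytokinesis, was by far the highest, with 7.75 FPKM (wt/fl) and 8.25 FPKM (fl/fl), 44.0% and 47.9% of the sum of all 11. Kif18a, which aligns chromosomes, was at 2.50 and 2.52 FPKM, and Kif15, which helps to hold spindle poles apart, at 1.34 and 1.34 FPKM. A pair of genes differed, in opposite directions. Kif23, the motor of the centralspindlin complex that organizes the central spindle and the midbody, was at 2.58 FPKM (wt/fl) and 1.497 FPKM (fl/fl), 58.0% of the wt/fl level. Kif22, a motor that binds chromosomes, was at 1.07 and 1.74 FPKM. Their log2 ratios with 1 FPKM added were −0.52 and 0.40, both short of the 1.5-fold limit, although the levels themselves differed 1.72-fold and 1.62-fold. With a pseudocount of 0.1 in place of 1, both passed 1.5-fold, as did 1.6% of all genes on the higher side and 2.59% on the lower side, and with 0.5 Kif23 passed and Kif22 did not (1.11% of all genes higher and 2.01% lower). The median of the 5 genes was 0.0098, and the sum of all 11 was 17.6 FPKM (wt/fl) and 17.2 FPKM (fl/fl). Without Kif20b the sum was 9.84 FPKM (wt/fl) and 8.98 FPKM (fl/fl).

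The mitotic kinesins below the limit were low in both genotypes. Kif11, which pushes spindle poles apart, lay just under it with 1.04 FPKM (wt/fl) and 0.740 FPKM (fl/fl). Kif4 was at 0.545 and 0.367 FPKM, Kif20a at 0.526 and 0.570 FPKM, and Kif18b, Kif14 and Kif2c were at 0.151 FPKM or less in both.

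Other proliferation genes, listed by function, were likewise low. Of 18 such genes that are not motors, 11 were compared and 0 passed 1.5-fold. With a pseudocount of 0.1, 1 was past it higher (1.6% of all genes) and 2 lower (2.59% of all genes). On the main scale their median log2 ratio was −0.17, with 1 gene past 25% higher (4.6% of all genes) and 2 lower (5.48%). The centralspindlin partner of Kif23, Racgap1, was at 5.79 FPKM (wt/fl) and 5.02 FPKM (fl/fl), and Aurkb, a mitotic kinase, at 3.83 and 3.59 FPKM. Mki67, the gene of the proliferation marker Ki-67, was at 2.69 and 1.501 FPKM and Ccnb2, a cyclin, at 2.11 and 1.12 FPKM. Their log2 ratios were −0.56 and −0.55. Cdc20, at 1.43 and 2.25 FPKM, was the only compared gene of this list that was higher in fl/fl. Mki67, Ccnb2 and Cdc20 were singled out after their values were seen. The part that dividing cells other than follicular B cells had in these values was not tested.

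**Figure D4:**
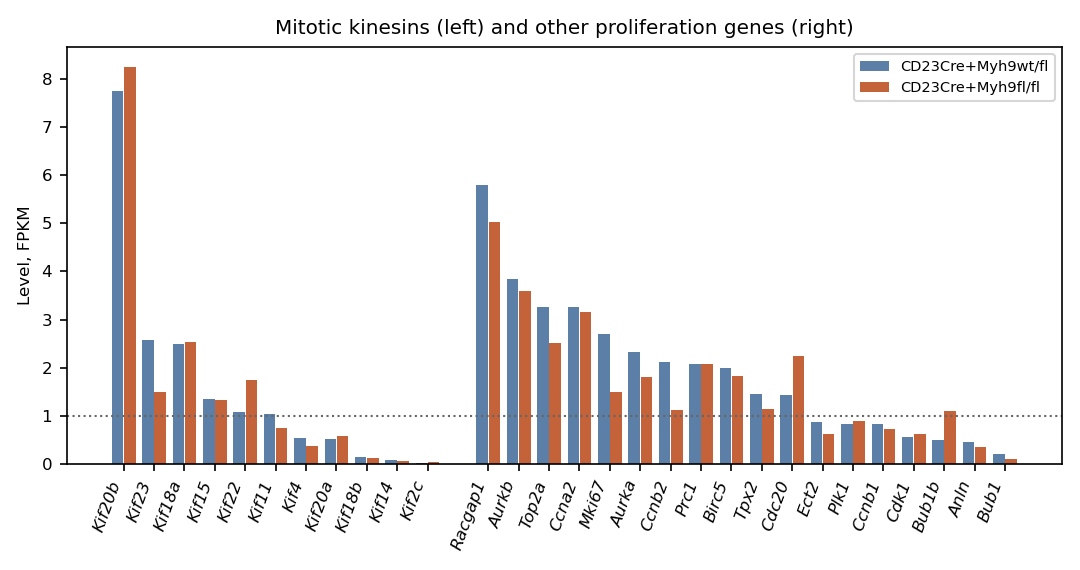
Level in FPKM of the 11 mitotic kinesins (left) and of 18 other proliferation genes (right), with 1 bar per genotype, each pooled over 3 samples, and no error bars. The dotted line marks 1 FPKM, and Kif20b, at 7.75 and 8.25 FPKM, is the highest gene. Kif23 and Mki67 are lower in fl/fl while Kif22 and Cdc20 are higher, Cdc20 alone among the compared genes on the right.

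The promoters of the mitotic kinesins carried a feature that the choice of genes had not used. The cell cycle homology region, a short element in genes that are switched on before mitosis, reads TTTGAA or TTCGAA, and both strands were searched, so that TTCAAA counts as TTTGAA. In the RefSeq promoters (GRCm38.p6, 250 bases before to 50 after each start), 55 of the 70 genes had an entry. There, 9 of the 10 mitotic kinesins with a promoter held one of them, beside 21.7% of 27025 genes. In the same window, 1 of 11 transport kinesins, 3 of 10 other kinesins and 0 of 9 dynein 1 genes held one. Among the tubulins, 1 of 7 α-tubulin and 1 of 6 β-tubulin genes did. Within 25 bases of the start, a limit set after the positions were seen, 7 of the 10 mitotic kinesins held one, beside 3.33% of all genes. At that limit, 1 of 21 transport and other kinesins and 0 of 24 dynein and tubulin genes held one. The CCAAT box, often found beside this element, was in 6 of the 10 mitotic kinesins, beside 41.1% of all genes. The stretches from 40 bases before to 25 bases after the start are shown for the compared genes that held the element, with Kif11 added as the gene nearest the limit, and capitals mark the element. They are at chr9:61946775-61946839 (minus strand) for Kif23, chr7:127042396-127042460 (minus) for Kif22, chr19:34922318-34922382 (plus) for Kif20b, chr9:122951041-122951105 (plus) for Kif15 and chr19:37376342-37376406 (plus) for Kif11.
Kif23: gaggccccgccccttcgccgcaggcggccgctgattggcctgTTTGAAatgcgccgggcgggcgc
Kif22: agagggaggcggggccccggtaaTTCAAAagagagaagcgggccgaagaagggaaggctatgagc
Kif20b: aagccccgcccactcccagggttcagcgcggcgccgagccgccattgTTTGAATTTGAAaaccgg
Kif15: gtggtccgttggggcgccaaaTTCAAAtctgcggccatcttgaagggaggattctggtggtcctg
Kif11: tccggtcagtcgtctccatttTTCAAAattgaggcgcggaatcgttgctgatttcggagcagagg
Kif23 and Kif22, whose levels differed in opposite directions, both held the element, and so did Kif20b and Kif15, whose levels differed by less than 25%. Kif18a, at the same level in both genotypes, held none in its window. A link between the element and the differences in level was not tested.

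Transport kinesins were dominated by a pair of genes. Kif5b, a heavy chain of conventional kinesin, was at 41.5 FPKM (wt/fl) and 41.1 FPKM (fl/fl). Kif21b, a motor that restrains microtubule growth, was at 39.5 and 35.4 FPKM. Together they made up 52.8% of the FPKM of all kinesins in wt/fl and 51.4% in fl/fl, against 11.5% and 11.6% for the 11 kinesins grouped as mitotic. That share depends on the grouping, which leaves out Kif2a, at 18.0 and 19.3 FPKM. Next came Kif3b, a subunit of heterotrimeric kinesin-2, with 7.51 and 8.21 FPKM. Its partner Kif3a was at 1.31 and 1.495 FPKM. The endosome motor Kif16b was at 6.41 and 5.99 FPKM, Kif13b at 4.21 and 4.35 FPKM, Kif1c at 4.07 and 3.69 FPKM and Kif3c at 1.90 and 1.77 FPKM. Of the 15 transport kinesins, 9 were compared and 0 passed 25%, with log2 ratios from −0.20 to 0.11 and a median of −0.068.

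The lowest log2 ratio of the group, that of Kif1b, rested on 1 of its 2 entries. Kif1b encodes a motor for mitochondria and vesicle precursors in alternative forms. One entry was at 2.01 FPKM (wt/fl) and 2.15 FPKM (fl/fl), and the other at 1.71 and 0.946 FPKM, a log2 ratio of −0.48. Summed, Kif1b was at 3.72 and 3.09 FPKM. The table does not name the form that each entry stands for. Kif2a and Kif9 also had 2 entries above 1 FPKM each. Kif2a, a kinesin that depolymerizes microtubules, summed to 18.0 and 19.3 FPKM and was the third most abundant kinesin. Kif9 summed to 3.26 and 3.86 FPKM, and Kif24, a centriole protein, was at 1.95 and 1.84 FPKM. The neuronal motors Kif1a, Kif5a and Kif5c were at 0.0797 FPKM or less in both genotypes.

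Partners of kinesins and motors outside the naming rule did not pass 1.5-fold. Of 10 such genes, 6 were compared, 0 passed 1.5-fold and 2 were past 25% lower, beside 5.48% of all genes. Their median log2 ratio was −0.19. Klc1, the main kinesin light chain in these cells, was at 17.3 FPKM (wt/fl) and 15.5 FPKM (fl/fl), and Klc4 at 4.77 and 4.92 FPKM. The lower ones were Klc2, at 2.98 and 1.77 FPKM, and Kifap3, the third subunit of kinesin-2, at 1.49 and 0.924 FPKM, both named after their values were seen. With a pseudocount of 0.1, both passed 1.5-fold, beside 2.59% of all genes on the lower side. Cenpe, a motor outside the naming rule and so not in the mitotic group above, was at 1.46 and 1.09 FPKM. Its log2 ratio was −0.24, and it too was named after its values were seen.

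Dynein 1 was expressed with every kind of subunit, and none of its compared genes passed 25%. The heavy chain Dync1h1, which holds the motor, was at 40.5 FPKM (wt/fl) and 38.7 FPKM (fl/fl). The intermediate chain came from Dync1i2, at 21.3 and 23.1 FPKM, whereas the neuronal Dync1i1 was listed at 0 in both genotypes. The light intermediate chains, which bind cargo adaptors, were at 18.3 and 18.1 FPKM for Dync1li2 and at 12.8 and 12.4 FPKM for Dync1li1.

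A pair of light chain genes gave the most abundant dynein mRNAs. Dynlrb1, of the roadblock family, was at 94.0 FPKM (wt/fl) and 102 FPKM (fl/fl). Dynll1, the LC8 light chain, which also binds many proteins outside dynein, was at 100.7 and 85.9 FPKM. Its log2 ratio of −0.23 was the lowest of the group and lay inside the −0.24 to 0.25 of genes above 20 FPKM. Its close relative Dynll2, with a coding sequence 81.3% identical and no shared window of 50 bases, was at 2.07 and 2.45 FPKM. Dynlt3, of the Tctex family, was at 32.0 and 36.6 FPKM. Relative to the heavy chain, Dynlt3 stood at 0.790 in wt/fl and 0.944 in fl/fl, Dync1i2 at 0.524 and 0.596 and Dynll1 at 2.48 and 2.22. The order of the genes was the same in both genotypes except that Dynll1 was above Dynlrb1 in wt/fl and below it in fl/fl.

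Of the 14 dynein 1 gene names, 9 were compared, with log2 ratios from −0.23 to 0.19 and a median of 0.10. The lowest of these, Dynlt1a, at 0.996 and 1.15 FPKM, and its copy Dynlt1b, just under the limit at 0.844 and 1.04 FPKM, are near-identical genes whose fragments could have been split either way. The 4 entries under the joint name of Dynlt1c and Dynlt1f were at 0 in wt/fl and summed to 0.259 FPKM in fl/fl. Dynein 2 moves cargo in cilia. Its heavy chain Dync2h1 was at 2.57 FPKM (wt/fl) and 2.99 FPKM (fl/fl), and its light intermediate chain Dync2li1 at 0.382 and 0.170 FPKM.

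Dynactin and the adaptors that switch dynein on likewise gave no difference of 1.5-fold. Of 20 genes listed by function, 17 were compared, 0 passed 1.5-fold and 1 was past 25% higher, beside 4.6% of all genes. The summed level of the 19 with values was 385 FPKM (wt/fl) and 385 FPKM (fl/fl). Dctn5 was at 64.1 and 59.8 FPKM and Dctn6 at 49.0 and 46.0 FPKM, and Dctn3 was the one past 25%, at 41.5 and 52.8 FPKM.

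Genes that fold, modify or bind tubulin gave no difference of 1.5-fold either. All 6 folding cofactors were compared and 0 passed 25%, with Tbca, which holds β-tubulin, at 375 and 367 FPKM and Tbcb at 37.0 and 42.8 FPKM. Of 18 modifying enzymes, 12 were compared, with 1 higher and 1 lower past 25%, beside 4.6% and 5.48% of all genes. With a pseudocount of 0.1, 1 was past 1.5-fold higher and 0 lower, beside 1.6% and 2.59% of all genes. Sirt2, a deacetylase, was at 38.4 and 40.01 FPKM and Agtpbp1, which trims glutamates, at 22.2 and 20.9 FPKM. The lower one was Hdac6, the other tubulin deacetylase, at 3.53 and 2.32 FPKM, and the higher one Agbl3, at 0.745 and 1.26 FPKM. Of 25 microtubule-associated proteins, 20 were compared, with 0 higher and 1 lower past 25%, beside the same 4.6% and 5.48% of all genes. The lower gene was Tacc3, a spindle protein, at 6.17 and 4.36 FPKM. Tacc1 was at 34.3 and 34.7 FPKM and Map4 at 33.8 and 35.7 FPKM. The median log2 ratios of the folding, modifying and binding lists were 0.082, −0.091 and −0.0050.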

How the data were processed

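RNA of sorted follicular B cells was amplified (Ovation RNA-Seq V2) and sequenced from 6 samples, 3 per genotype. The authors' deposited table follows the layout of the program Cuffdiff and gives FPKM pooled over a genotype, 1 value per coding sequence group. The submitters' processing notes name Bowtie, TopHat, Cufflinks and mm10. Positions in the table are not those of GRCm38 (12 of 69 genes overlapped the RefSeq gene of that symbol). Their build was not settled, and they are not printed. Further columns hold the authors' log2 fold changes, test statistics, p-values and q-values and were not used. Depth per sample is unknown. A step was taken as the median of the lowest values of FPKM times length in kilobases, 0.0316 (wt/fl) and 0.0318 (fl/fl). Of the low values, 29.2% (wt/fl) and 32.8% (fl/fl) came within 0.1 of a whole multiple of that step, so read counts could not be recovered. The share that values without a step would give was not computed.

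FPKM was summed per gene name (pandas 2.3.3), without 44 entries whose symbol had become a date, and genes whose mean reached 1 FPKM were compared by log2((fl/fl + 1)/(wt/fl + 1)). Coding sequences were aligned with Biopython 1.88. The genes, groups and lists were chosen with earlier results of these data known. The text names the 3 most abundant genes of each group, the 2 most abundant of each list, each gene past 1.5-fold and the genes nearest 1 FPKM, and others were named after their values were seen. Alternatives were pseudocounts of 0.1 and 0.5, a limit of 5 FPKM or none, folds of 25% and 2, scaling by upper quartile or median ratio, and the highest entry of each gene.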

Additional observations from a re-analysis of the deposited data

How the results depend on the processing

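The counts of genes past the fold rested on low levels and moved with the pseudocount. With 0.1 FPKM added in place of 1, 3 of the 38 genes were higher in fl/fl (Kif22, Tubb4a and Tubg2) and 2 lower (Kif23 and Tubb2a). At that setting 1.6% of all genes were higher and 2.59% lower. With 0.5 FPKM 1 was higher (Tubb4a) and 2 lower, beside 1.11% and 2.01% of all genes. At the limit of 25% 4 were higher and 2 lower, and at 2-fold 0 were lower, as with a mean of at least 5 FPKM, which leaves Tubb2a out. Neither scaling nor the use of the highest entry changed these counts. Of 62 group medians recomputed, 57 moved by less than 0.1. The others were γ-tubulins (0.26 with 0.1 FPKM added and −0.062 at a mean of at least 5 FPKM), dynein 1 (−0.0084 at that mean), and dynein 2 and α-tubulins without a filter (−0.039 and 0.024). The limit of 0.1 is a fixed setting and says nothing of the spread between mice, which pooled values do not give. No paired analysis was possible because each genotype has 1 pooled value, and for the same reason no replicate could be left out.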

Other observations

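Among the 32 genes with a mean under 1 FPKM, 5 were listed at 0 in both genotypes and 8 in 1 genotype only. Some of the 32 differed between the genotypes at very low levels, in both directions. Kif19a was at 1.05 FPKM (wt/fl) and 0.466 FPKM (fl/fl), Kif2b at 0.227 and 0.0292 FPKM, Dync2li1 at 0.382 and 0.170 FPKM and Kif17 at 0.0292 and 0.00943 FPKM. Listed at 0 in wt/fl were Kif5a, at 0.0797 FPKM in fl/fl, and the joint name of Dynlt1c and Dynlt1f, at 0.259 FPKM in fl/fl. These 6 were picked after their values were seen, and the authors' software had not found enough data to test any of them.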
